A study of Mus musculus with 16 samples.

Results

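The autophagy genes described here are the mouse genes whose symbols begin with Atg and a digit, the light chain 3 genes Map1lc3a and Map1lc3b, the Gabarap genes, and 18 further genes named one by one, from the initiating kinases Ulk1 and Ulk2 to the lysosomal membrane proteins Lamp1 and Lamp2. The rule uses no measured value. In all, 42 symbols met the rule, 41 of them had a row among the 32989 identifiers of the count table, and all 41 passed the filter of a mean count of at least 5, being among the 19049 genes tested. The remaining symbol, Atg4a-ps, was not analysed here.

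Autophagy is the delivery of cytoplasm, proteins and organelles to the lysosome inside a double membrane, the autophagosome. The ULK complex starts it, a class III phosphatidylinositol 3-kinase (PI3-kinase) marks the site with the lipid PI3P, WIPI proteins read that mark, and ATG2 and ATG9 supply lipid to the growing membrane. Ubiquitin-like conjugation enzymes then attach the ATG8 proteins (LC3 and GABARAP) to the membrane, receptors tether cargo to them, and the closed vesicle fuses with a lysosome. In skin, autophagy is known for its part in keratinocyte differentiation and in the upkeep of stem cells. RNA levels do not measure autophagic flux, which was not measured in these samples.

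The study asked how N1-acetylspermidine (N1-AcSpd), an acetylated form of the polyamine spermidine, acts on hair follicle stem cells (HFSCs) in organoids. Epidermal cells of C57BL/6J mice of both sexes in telogen, the resting phase of the hair cycle, were grown as organoids (3D–3C culture) for 2 weeks, received N1-AcSpd for 72 h or nothing, and were sorted on integrin α6 and CD34. The 4 groups were thus untreated (titled WT) α6+/CD34− progenitors, untreated α6+/CD34+ HFSCs, N1-AcSpd-treated progenitors and N1-AcSpd-treated HFSCs, each with 1 library from each of the same 4 mice. The dose and the age of each mouse are not in the labels, the labels name no transgene, and the sorted progenitors are a mixture that the study describes as outer root sheath and inner bulge cells.

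RNA was counted as unique molecular identifiers (UMIs), tags that mark single molecules, at the 3′ ends of transcripts. Libraries held 15480075 to 29074855 UMIs and 22142 to 24247 genes with a count, and the members' mean count ran from 16.9 UMIs for Tfeb to 4614 for Map1lc3b, with Tfeb, Atg16l2, Atg4c and Ulk2 (mean counts of 16.9 to 39.6) the least deeply counted. The sort marker Cd34 stood at 2.87 to 3.65 CPM (counts scaled to 1 common library size, after TMM) in CD34− libraries and at 43.4 to 64.0 CPM in CD34+ libraries. The summed level of 5 keratinocyte markers was 5787 to 7023 CPM in all libraries, 5 fibroblast markers summed to at most 1.14 CPM and 4 of 5 immune markers to at most 4.99 CPM, the other, Cd207, not being analysed here. Of 5 melanocyte markers summing to 9.38 to 12.6 CPM, nearly all was Pmel, while Dct, Tyr and Tyrp1 were at or near 0. For 4 members the counts could not be told apart from those of an overlapping gene, within 10% in every library: Lamp1 and Grtp1, Bnip3 and Gm45507, Becn1 and Cntd1, and Atg4d and Kri1, each on the opposite strand. Whether the counting used the strand is not given in the sources used here.

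The promoters of the 2 lysosomal membrane genes and of Atg2a, all called between cell types in both conditions below, are shown because the transcription factors TFEB and TFE3, themselves members, are known to drive lysosomal and autophagy genes through the E-box CACGTG, the core of the CLEAR element. Windows of 300 bases (250 before and 50 after the RefSeq start, GRCm38.p6) were at hand for 35 of the 42 members. Map1lc3a was among the 7 without one. The E-box, which reads the same on both strands, occurred in 6 of these 35 windows (17.1%; Atg14, Atg3, Atg5, Atg7, Bnip3 and Lamp1) and in 8.09% of the windows of 27025 symbols. The longer TCACGTGA, which contains the E-box, was in the Atg3 window (1 of 35 members, 2.86%) and in 1.12% of all symbols. Lamp1 held 4 copies, which start between 61 and 15 bases before its start, and 6 of the 27025 symbols (0.0222%) held as many or more. Lamp2 and Atg2a held none. The 250 bases before the start are given 5′ to 3′ on the strand of the gene, with the E-box in capitals, for Lamp1 (chr8:13158911-13159160, plus strand), Lamp2 (chrX:38456461-38456710, minus strand) and Atg2a (chr19:6241418-6241667, plus strand). These matches describe letters and not binding.
Lamp1: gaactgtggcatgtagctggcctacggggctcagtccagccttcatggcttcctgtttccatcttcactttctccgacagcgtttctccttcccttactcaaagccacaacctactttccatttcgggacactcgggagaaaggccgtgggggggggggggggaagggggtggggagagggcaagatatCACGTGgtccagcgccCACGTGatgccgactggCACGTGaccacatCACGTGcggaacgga
Lamp2: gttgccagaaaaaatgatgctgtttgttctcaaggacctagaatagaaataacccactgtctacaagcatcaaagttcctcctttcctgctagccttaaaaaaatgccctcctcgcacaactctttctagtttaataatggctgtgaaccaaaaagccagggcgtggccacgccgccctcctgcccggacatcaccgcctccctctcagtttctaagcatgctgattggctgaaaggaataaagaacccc
Atg2a: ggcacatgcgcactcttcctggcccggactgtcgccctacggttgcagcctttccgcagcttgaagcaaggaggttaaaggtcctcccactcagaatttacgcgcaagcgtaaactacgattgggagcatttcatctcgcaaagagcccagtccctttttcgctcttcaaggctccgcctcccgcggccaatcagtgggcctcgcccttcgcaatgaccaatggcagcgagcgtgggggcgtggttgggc

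The first question was how HFSCs differ from progenitors in autophagy genes. In untreated organoids, edgeR's quasi-likelihood test called 11 of the 41 members (26.8%, 8 higher and 3 lower in CD34+ HFSCs), against 32.1% of all genes tested (16.1% higher and 16.1% lower). In N1-AcSpd organoids 11 were called as well (26.8%, 6 higher and 5 lower), against 33.3% of all genes (16.5% higher and 16.8% lower). The share of called members was thus close to that of any gene in both conditions. The median log2 fold change of the members was 0.13 in untreated cells (0.022 over all genes) and -0.0080 in N1-AcSpd cells (-0.0068 over all genes). The 6 members called in both conditions had the same direction in each: Map1lc3a, Lamp2 and Rb1cc1 were higher and Atg2a, Wipi2 and Lamp1 lower in HFSCs. A further 5 were called in untreated cells alone (Atg16l2, Atg4b, Optn, Pik3c3, Pik3r4), 5 in N1-AcSpd cells alone (Atg9a, Atg9b, Bnip3, Gabarap, Ulk2) and 25 in neither. That a call fell in 1 condition does not show that the conditions differ: the interaction of treatment and cell type called no member (adjusted p = 1.0 for each of the 41). Scaling mattered for the directions. When counts were scaled by their library totals, the all-gene median became 0.14 in untreated and 0.11 in N1-AcSpd cells, and the members called were 18 higher and 1 lower in untreated cells (25.5% and 9.23% of all genes) and 10 higher and 4 lower in N1-AcSpd cells (25.2% and 9.99% of all genes). With DESeq2 size factors they were 6 higher and 4 lower in untreated cells (14.7% and 17.4% of all genes). In bulk RNA, fewer cells of a type and less RNA per cell cannot be told apart.

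**Figure D1:**
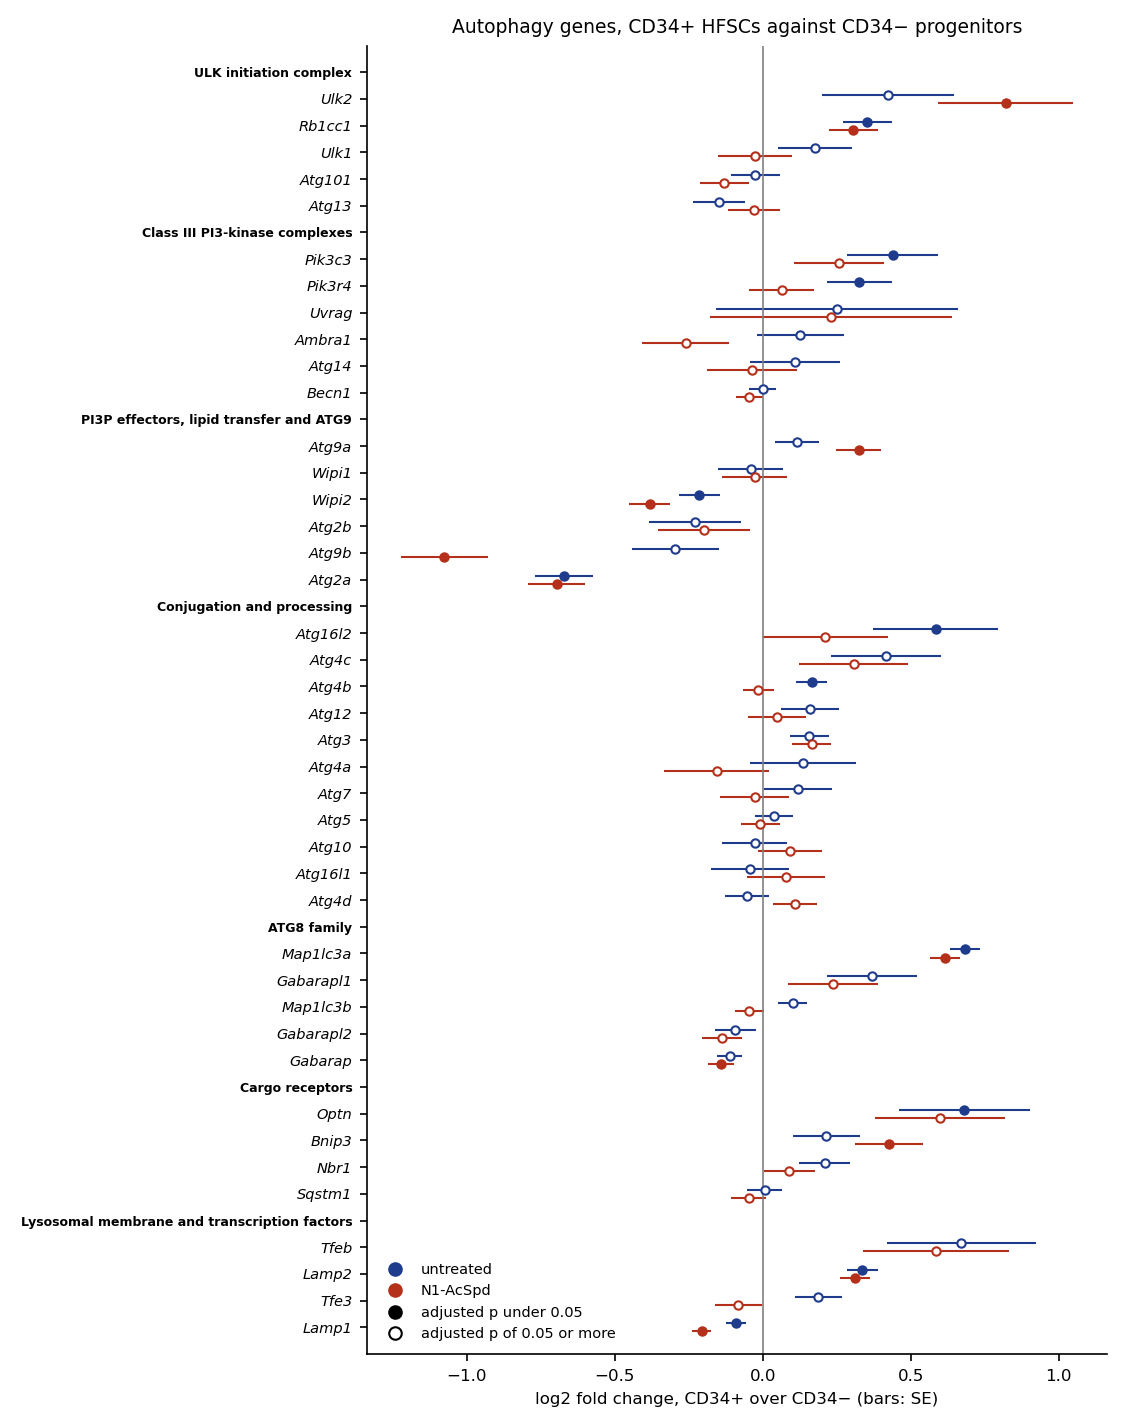
Log2 fold change of each of the 41 members in CD34+ HFSCs over CD34− progenitors (x axis), by role, in untreated (blue) and N1-AcSpd (red) organoids, with bars of 1 SE from 4 mice a group and filled points for an adjusted p under 0.05. Map1lc3a lies furthest right among the members called in both conditions (0.68 and 0.62) and Atg2a furthest left (-0.67 and -0.70).

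Among the ULK complex, 1 of 5 members was called higher in untreated HFSCs, 2 of 5 in N1-AcSpd HFSCs, and none lower. Of all genes, 16.1% were called higher and 16.1% lower in untreated cells, and 16.5% and 16.8% in N1-AcSpd cells. No role list, here or below, was tested against these shares. Rb1cc1 (ENSMUSG00000025907, chromosome 1, 6206197 to 6276648 on GRCm38) encodes FIP200, the scaffold of the complex. It was at 9.29, 9.58, 7.71 and 8.75 CPM in the untreated CD34− libraries of mice 1 to 4 and at 10.2, 11.2, 11.1 and 12.7 CPM in the CD34+ libraries. Under N1-AcSpd the CD34− libraries held 8.63, 7.13, 8.52 and 7.55 CPM and the CD34+ libraries 9.51, 9.91, 10.4 and 9.51 CPM. In both conditions every CD34+ library lay above every CD34− library, and the difference on the log2 scale was 0.35 (SE 0.084, adjusted p = 0.00523) in untreated cells and 0.31 (SE 0.084, adjusted p = 0.0117) in N1-AcSpd cells by edgeR. The first call was lost without mouse 4 (adjusted p = 0.0612) and the second without mouse 2 or mouse 4 (up to 0.0899). Ulk2, a catalytic kinase of the complex, had a log2 fold change of 0.42 (adjusted p = 0.174) in untreated and 0.82 (SE 0.23, adjusted p = 0.0124) in N1-AcSpd cells by edgeR. The latter call was lost without mouse 2, 3 or 4 (adjusted p up to 0.0874), and with the mouse as a replicate block Ulk2 was called in untreated cells too (log2 fold change 0.44, adjusted p = 0.0181). Ulk1, Atg13 and Atg101 had log2 fold changes of -0.15 to 0.18 and were called in neither condition.

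The class III PI3-kinase complexes had 2 of 6 members called higher in untreated HFSCs and none in N1-AcSpd cells, where the median log2 fold change was 0.014. Over all genes, 16.1% and 16.5% were called higher. The calls were on the catalytic subunit Pik3c3 (VPS34) and on Pik3r4 (VPS15), the regulatory subunit that anchors it. Pik3r4 (ENSMUSG00000032571, chromosome 9, 105642978 to 105687657), with the smallest p of the group, was at 3.40, 3.45, 3.55 and 4.06 CPM in untreated CD34− and at 4.61, 3.95, 4.39 and 5.19 CPM in untreated CD34+ libraries. Under N1-AcSpd the values were 3.76, 3.55, 3.27 and 4.06 CPM and 3.12, 3.87, 4.11 and 4.23 CPM. The untreated groups overlapped at mouse 2 of the HFSCs and mouse 4 of the progenitors, and the N1-AcSpd groups overlapped widely. For Pik3r4 the log2 fold change was 0.33 (SE 0.11, adjusted p = 0.0367) in untreated and 0.064 (adjusted p = 0.868) in N1-AcSpd cells by edgeR. For Pik3c3 it was 0.44 (SE 0.15, adjusted p = 0.0418) and 0.26 (adjusted p = 0.23) by edgeR. Both calls were fragile: that on Pik3r4 was lost without untreated CD34− mouse 1, 2 or 3, without untreated CD34+ mouse 1, 3 or 4 or without any whole mouse (adjusted p up to 0.141 over all alternatives), and that on Pik3c3 in 12 of 20 runs leaving out a library or mouse and with the mouse as a replicate block (log2 fold change 0.43, adjusted p = 0.0673). Neither call held without a low-count filter, with a fit of only the groups compared or with DESeq2 (adjusted p of 0.0506 to 0.114 for Pik3r4 and of 0.0699 to 0.0854 for Pik3c3). The 12 runs were those without untreated CD34− mouse 2, 3 or 4, untreated CD34+ mouse 1, 2 or 4, N1-AcSpd CD34− mouse 2 or 4, N1-AcSpd CD34+ mouse 3, and mice 2, 3 and 4 as a whole (adjusted p up to 0.237 over all alternatives). Becn1, the Beclin 1 scaffold, had log2 fold changes of -0.00058 (adjusted p = 0.999) and -0.046 (adjusted p = 0.509), and Atg14 and Ambra1 passed the test in neither condition.

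Of the 6 PI3P readers, ATG2 lipid carriers and ATG9 scramblases, 2 were called lower in HFSCs and none higher in untreated cells. In N1-AcSpd cells 3 were lower and 1 higher (medians of the 2 conditions -0.22 and -0.29). Among all genes, 16.1% were called lower in untreated cells, and 16.8% lower and 16.5% higher in N1-AcSpd cells. Atg2a (ENSMUSG00000024773, chromosome 19, 6241668 to 6262335) encodes a protein that moves lipid from the endoplasmic reticulum into the growing membrane. It was at 8.86, 9.58, 11.3 and 12.4 CPM in untreated progenitors (10.5 ± 1.60, mean and SD, n = 4) and at 6.20, 7.13, 6.67 and 6.48 CPM in untreated HFSCs (6.62 ± 0.391). Under N1-AcSpd it was at 10.3, 10.4, 12.2 and 12.2 CPM in progenitors and at 7.36, 6.95, 6.81 and 6.75 CPM in HFSCs. No HFSC library reached the lowest progenitor library in either condition. The log2 fold change was -0.67 (SE 0.10, adjusted p = 0.000137) in untreated and -0.70 (SE 0.10, adjusted p = 8.17e-05) in N1-AcSpd cells by edgeR, and both calls held in all 8 alternative fits and all 20 leave-out runs. Its paralog Atg2b had -0.23 (adjusted p = 0.303) and -0.20 (adjusted p = 0.377).

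Wipi2 (ENSMUSG00000029578, chromosome 5, 142627698 to 142670588) encodes the PI3P reader that brings the conjugation enzyme to the site. Its level was 26.4, 28.2, 25.1 and 28.7 CPM in untreated progenitors against 21.7, 22.9, 24.2 and 24.6 CPM in untreated HFSCs, and 29.8, 29.3, 28.7 and 27.2 CPM against 19.5, 24.8, 21.7 and 22.3 CPM under N1-AcSpd. The groups did not touch in either condition, though in untreated cells the gap was narrow, between 24.6 CPM in HFSCs of mouse 4 and 25.1 CPM in progenitors of mouse 3. On the log2 scale the difference was -0.21 (SE 0.069, adjusted p = 0.0281) in untreated and -0.38 (SE 0.069, adjusted p = 0.000679) in N1-AcSpd cells by edgeR. The untreated call was lost with library totals (log2 fold change -0.10, adjusted p = 0.35), without untreated CD34− mouse 2 or 4, without untreated CD34+ mouse 1 or 2, and without mouse 1, 2 or 4 as a whole. Wipi1 had log2 fold changes of -0.04 (adjusted p = 0.863) and -0.027 (adjusted p = 0.904).

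The 2 ATG9 genes, whose products carry the membrane that seeds the autophagosome, went opposite ways in N1-AcSpd cells. Atg9a (ENSMUSG00000033124, chromosome 1, 75180860 to 75192196) was at 7.02, 5.71, 6.35 and 6.89 CPM in N1-AcSpd progenitors and at 8.51, 7.97, 8.29 and 7.75 CPM in N1-AcSpd HFSCs, with an edgeR log2 fold change of 0.32 (SE 0.076, adjusted p = 0.0042) that was lost without mouse 3 (adjusted p = 0.0561). Atg9b (ENSMUSG00000038295, chromosome 5, 24384181 to 24392143) was at 5.49, 6.64, 5.10 and 5.46 CPM in N1-AcSpd progenitors and at 2.30, 3.13, 2.58 and 2.76 CPM in N1-AcSpd HFSCs, which by edgeR made a difference on the log2 scale of -1.08 (SE 0.15, adjusted p = 7.58e-05). Atg9b was thus lower in each HFSC library than in any progenitor library, and this call held in all 8 alternative fits and all 20 leave-out runs. In untreated cells Atg9a was at 7.66, 6.64, 7.36 and 7.40 CPM in progenitors and at 7.06, 7.90, 7.81 and 8.74 CPM in HFSCs, a log2 fold change of 0.12 (adjusted p = 0.343) by edgeR. Untreated Atg9b was at 3.53, 3.13, 3.85 and 5.10 CPM and at 3.13, 3.46, 2.71 and 3.44 CPM, a log2 fold change of -0.29 (adjusted p = 0.152) by edgeR. Both untreated comparisons overlapped. Atg9b counts followed those of Nos3, which overlaps its 3′ end on the opposite strand (correlation of counts over the 16 libraries 0.98, a description that depth alone can raise). Mean counts were 85.06 UMIs for Atg9b and 60.0 for Nos3, with a largest difference of 42.9% in any library. Atg9a counts followed those of the transcript Gm29253 (0.971), with means of 156.25 and 213.38 UMIs. The part of the counts common to each pair was not tested.

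The conjugation and processing enzymes were the largest group. Of its 11 members, 2 were called higher in untreated HFSCs and none in N1-AcSpd cells, against 16.1% and 16.5% of all genes. Atg4b (ENSMUSG00000026280, chromosome 1, 93751500 to 93790610) encodes the main protease that trims ATG8 proteins before conjugation. It overlaps Thap4 on the opposite strand over 3365 bases. Mean counts were 482.75 UMIs for Atg4b and 443.75 for Thap4, with a largest difference of 17.6% in any library (correlation of counts 0.885). The part of the Atg4b counts common to Thap4 was not tested. Atg4b was at 21.0, 21.3, 22.8 and 22.0 CPM in untreated progenitors and at 24.0, 26.8, 22.8 and 24.1 CPM in untreated HFSCs, where only mouse 3 of each group met at 22.8 CPM. Under N1-AcSpd it was at 23.2, 21.7, 22.3 and 23.9 CPM and 21.5, 21.8, 22.9 and 24.0 CPM, with no separation. The log2 fold change was 0.16 (SE 0.053, adjusted p = 0.0289) in untreated and -0.015 (adjusted p = 0.889) in N1-AcSpd cells by edgeR, and the untreated call was lost without untreated CD34− mouse 1 or 2, untreated CD34+ mouse 2 or 4, or mouse 1, 2 or 4 as a whole, and with DESeq2 size factors, without a low-count filter, with a fit of only the groups compared and with DESeq2 (adjusted p up to 0.178 over all alternatives). Atg16l2, a paralog of the conjugation scaffold Atg16l1, had 0.58 (SE 0.21, adjusted p = 0.0477) in untreated and 0.21 (adjusted p = 0.511) in N1-AcSpd cells by edgeR, at mean counts of 30.8 UMIs. That call was lost in 14 of 20 runs, without untreated CD34− mouse 1, 2 or 3, untreated CD34+ mouse 2 or 4, N1-AcSpd CD34− mouse 1, 2 or 4, N1-AcSpd CD34+ mouse 1 or 4, or any whole mouse, and also with DESeq2 size factors, without a low-count filter, with a fit of only the groups compared and with DESeq2 (adjusted p up to 0.186 over all alternatives). The other 9 members, among them the E1-like Atg7, the E2-like Atg3 and Atg10 and the conjugate partners Atg5 and Atg12, had log2 fold changes of -0.052 to 0.42 in untreated and of -0.16 to 0.31 in N1-AcSpd cells and passed the test in neither, but with the mouse as a replicate block Atg3 was called higher in both (log2 fold change 0.16 in each, adjusted p = 0.0389 and 0.0313).

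Of the 5 ATG8 genes, whose products coat the membrane and bind cargo receptors, Map1lc3a was called higher in both conditions and Gabarap lower in N1-AcSpd cells. Map1lc3a (ENSMUSG00000027602, chromosome 2, 155276297 to 155278073) was at 36.1, 38.2, 35.6 and 35.5 CPM in untreated progenitors (36.4 ± 1.26, SD, n = 4) and at 61.0, 59.7, 54.6 and 58.1 CPM in untreated HFSCs (58.3 ± 2.75). With N1-AcSpd it was at 38.0, 41.2, 35.7 and 35.2 CPM in progenitors and at 56.8, 56.7, 59.7 and 56.9 CPM in HFSCs. The lowest HFSC library (54.6 CPM) stood well above the highest progenitor library (41.2 CPM). HFSCs exceeded progenitors on the log2 scale by 0.68 (SE 0.051, adjusted p = 7.37e-07) in untreated and 0.62 (SE 0.051, adjusted p = 1.06e-06) in N1-AcSpd cells by edgeR, the smallest adjusted p of any member in both comparisons, and both calls held in all 8 alternative fits and all 20 leave-out runs. Map1lc3b, the LC3 form with the most counts here, had 0.10 (adjusted p = 0.148) and -0.045 (adjusted p = 0.564); it lies wholly inside the readthrough model Gm20388. Gabarap had -0.11 (adjusted p = 0.0608) in untreated and -0.14 (SE 0.043, adjusted p = 0.0205) in N1-AcSpd cells by edgeR, a call lost with library totals (log2 fold change -0.025), with a fit of only the groups compared, and without untreated CD34+ mouse 3 or 4, N1-AcSpd CD34− mouse 1 or 3, N1-AcSpd CD34+ mouse 2 or 3, or mouse 1, 2 or 3 as a whole (adjusted p up to 0.724 over all alternatives). Gabarapl1 and Gabarapl2 were called in neither condition. With the mouse as a replicate block, Gabarapl1 (log2 fold change 0.38, adjusted p = 0.0192) and Gabarap (-0.11, adjusted p = 0.0458) were called in untreated cells.

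Among the 4 cargo receptors, 1 was called higher in each condition and none lower, against 16.1% and 16.5% of all genes higher. Bnip3 (ENSMUSG00000078566, chromosome 7, 138890836 to 138909519) encodes a mitochondrial receptor that responds to low oxygen. It was at 113, 95.1, 105 and 103 CPM in untreated progenitors and at 127, 110.2, 114 and 132 CPM in untreated HFSCs, with an overlap at mouse 1 of the progenitors. Under N1-AcSpd it was at 105, 79.3, 91.9 and 91.8 CPM in progenitors and at 118, 100.4, 123 and 153 CPM in HFSCs, where mouse 1 of the progenitors again lay above mouse 2 of the HFSCs. Bnip3 thus had a log2 fold change of 0.22 (adjusted p = 0.18) in untreated and 0.43 (SE 0.11, adjusted p = 0.0105) in N1-AcSpd cells by edgeR, and the latter was lost without mouse 3 or mouse 4 (adjusted p up to 0.0799). Optn (optineurin, a receptor for damaged mitochondria and bacteria) had 0.68 (SE 0.22, adjusted p = 0.0299) in untreated and 0.60 (adjusted p = 0.0506) in N1-AcSpd cells by edgeR. The untreated call on Optn was lost without a filter, without untreated CD34− mouse 2 or 4, untreated CD34+ mouse 1 or 3, or any whole mouse (adjusted p up to 0.0897), and with the mouse as a replicate block Optn was called in N1-AcSpd cells too (log2 fold change 0.62, adjusted p = 0.0226). Sqstm1 (p62), the receptor for ubiquitinated proteins, had 0.0059 (adjusted p = 0.967) and -0.047 (adjusted p = 0.623), and its partner Nbr1 0.21 (adjusted p = 0.0843) and 0.09 (adjusted p = 0.495).

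The 2 lysosomal membrane glycoproteins differed in opposite directions. Lamp2 (ENSMUSG00000016534, chromosome X, 38401357 to 38456454), which serves chaperone-mediated autophagy and vesicle fusion, was at 52.3, 51.9, 54.2 and 56.6 CPM in untreated progenitors and at 69.5, 67.6, 65.5 and 68.9 CPM in untreated HFSCs. With N1-AcSpd it was at 57.5, 54.2, 54.2 and 54.5 CPM in progenitors and at 63.6, 65.9, 67.6 and 76.5 CPM in HFSCs. The groups did not overlap, the log2 fold change was 0.34 (SE 0.051, adjusted p = 0.000214) in untreated and 0.31 (SE 0.051, adjusted p = 0.000318) in N1-AcSpd cells by edgeR, and both calls held in all 8 alternative fits and all 20 leave-out runs. Lamp1 (ENSMUSG00000031447, chromosome 8, 13159161 to 13175338), its close relative, was at 177, 170.0, 185 and 174 CPM in untreated progenitors and at 169, 164, 168 and 162 CPM in untreated HFSCs, a step of little more than 1 CPM between mouse 2 of the former and mouse 1 of the latter. With N1-AcSpd it was at 197, 184, 186 and 196 CPM in progenitors and at 164, 164, 164 and 170.0 CPM in HFSCs, which is a wider gap. For Lamp1 the log2 fold change was -0.09 (SE 0.033, adjusted p = 0.0474) in untreated and -0.21 (SE 0.033, adjusted p = 0.000237) in N1-AcSpd cells by edgeR. The N1-AcSpd call held in all 8 alternative fits and all 20 leave-out runs. The untreated value turned to 0.025 (adjusted p = 0.58) with library totals, and the call was lost without a low-count filter (adjusted p = 0.0996), with a fit of only the groups compared (adjusted p = 0.0926) and in 14 of 20 runs, without untreated CD34− mouse 1, 3 or 4, untreated CD34+ mouse 1, 2 or 4, N1-AcSpd CD34− mouse 3 or 4, N1-AcSpd CD34+ mouse 2 or 3, or any whole mouse, so that its direction in untreated cells depends on scaling. The transcription factor Tfeb had log2 fold changes of 0.67 (adjusted p = 0.0554) and 0.59 (adjusted p = 0.0866) at a mean count of 16.9 UMIs, and Tfe3 of 0.19 (adjusted p = 0.0977) and -0.082 (adjusted p = 0.557).

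**Figure D2:**
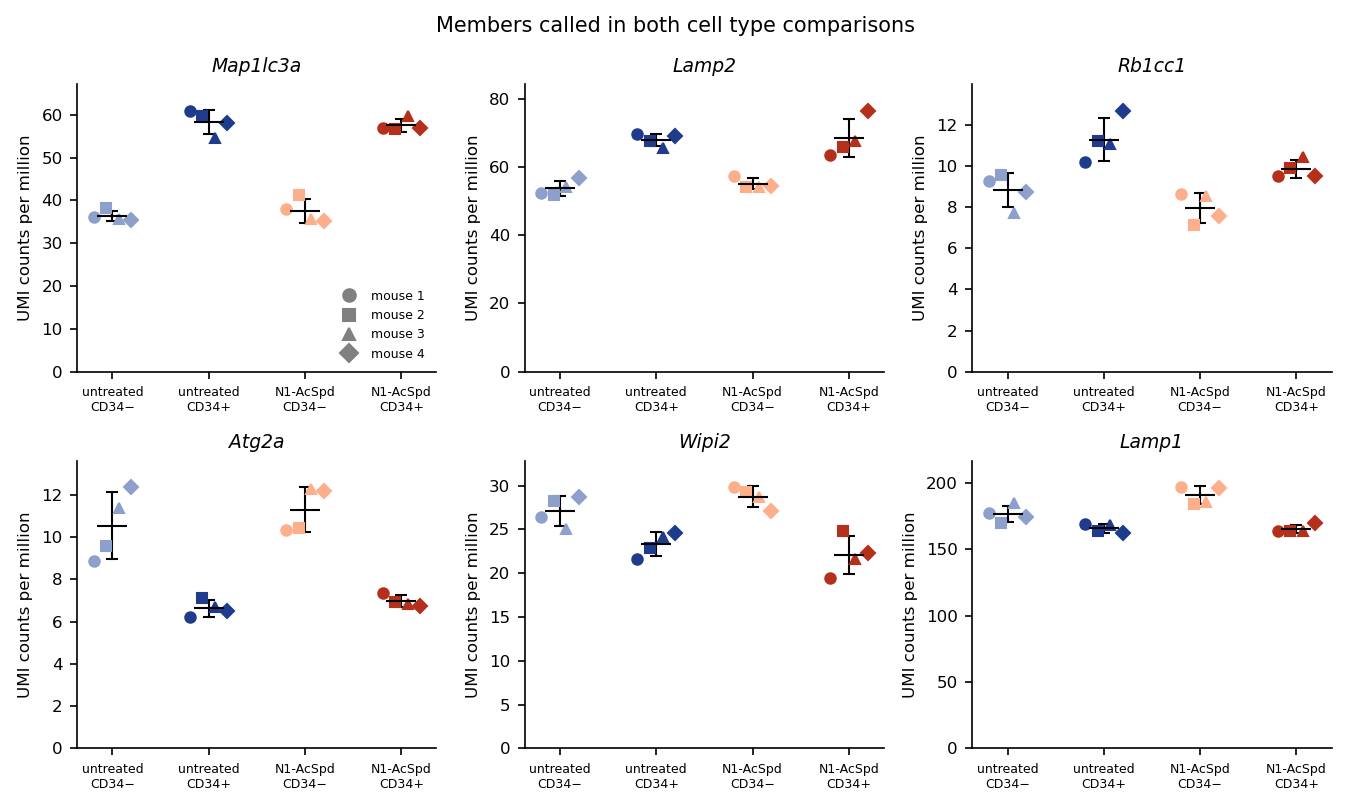
Level in CPM (y axis, from 0) of the 6 members called in both cell type comparisons, in each of the 4 groups (x axis), with 1 point for each mouse and lines for the mean and SD. The CD34+ libraries of Map1lc3a, Lamp2 and Rb1cc1 lie above, and those of Atg2a, Wipi2 and Lamp1 below, all CD34− libraries of the same condition.

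Other RNA differed between the sorted populations as well. The summed level of 8 markers of differentiated epidermis was 1176 to 1586 CPM in untreated progenitors and 316 to 351 CPM in untreated HFSCs, and 1400 to 1875 CPM against 334 to 436 CPM under N1-AcSpd; all 8 of 8 were called lower in HFSCs in both conditions. Of 6 HFSC markers 5 were called higher in both, with sums of 64.1 to 88.3 CPM in progenitors and 366 to 614 CPM in HFSCs. The part of these marker differences in the values of the autophagy genes was not tested. Without the 4 members whose counts were within 10% of those of an overlapping gene, 10 of 37 were called in untreated cells (27.0%, 8 higher, 2 lower). Of all genes 32.1% were called there (16.1% higher, 16.1% lower). In N1-AcSpd cells 9 of 37 were called (24.3%, 5 higher, 4 lower), against 33.3% of all genes (16.5% higher, 16.8% lower). The 37 still include Atg4b, Atg9a, Atg9b and Uvrag, which also overlap genes with counts.

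The second question was whether N1-AcSpd changed these genes within a population. In progenitors edgeR called none of the 41 members (0.614% of all genes were called), with 5 at an unadjusted p under 0.05 (12.2%, against 13.6% of all genes). In HFSCs none was called either (0.325% of all genes), with 7 at an unadjusted p under 0.05 (17.1%, against 13.2% of all genes). DESeq2 called 1 in progenitors, Lamp1 (log2 fold change 0.11, adjusted p = 0.0227), and 0 in HFSCs, against 2.93% and 2.22% of all genes. For some members in each population it gave no adjusted p (numbers further below), so these could not be called. At an unadjusted p under 0.05 DESeq2 had 5 and 1 members, against 12.3% and 11.4% of all genes. The median log2 fold change was 0.017 in progenitors and -0.066 in HFSCs, against 0.00011 and -0.014 over all genes. For 34 of 41 members in progenitors, and for 34 of 41 in HFSCs, the 95% interval of the log2 fold change lay within -0.5 to 0.5, and the remaining 7 in each were not bounded so closely. These intervals rest on the SE and can be too narrow for members whose p is larger than the SE implies. A p that misses the threshold does not show that the gene was unaffected. These comparisons use the same libraries as those between cell types.

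**Figure D3:**
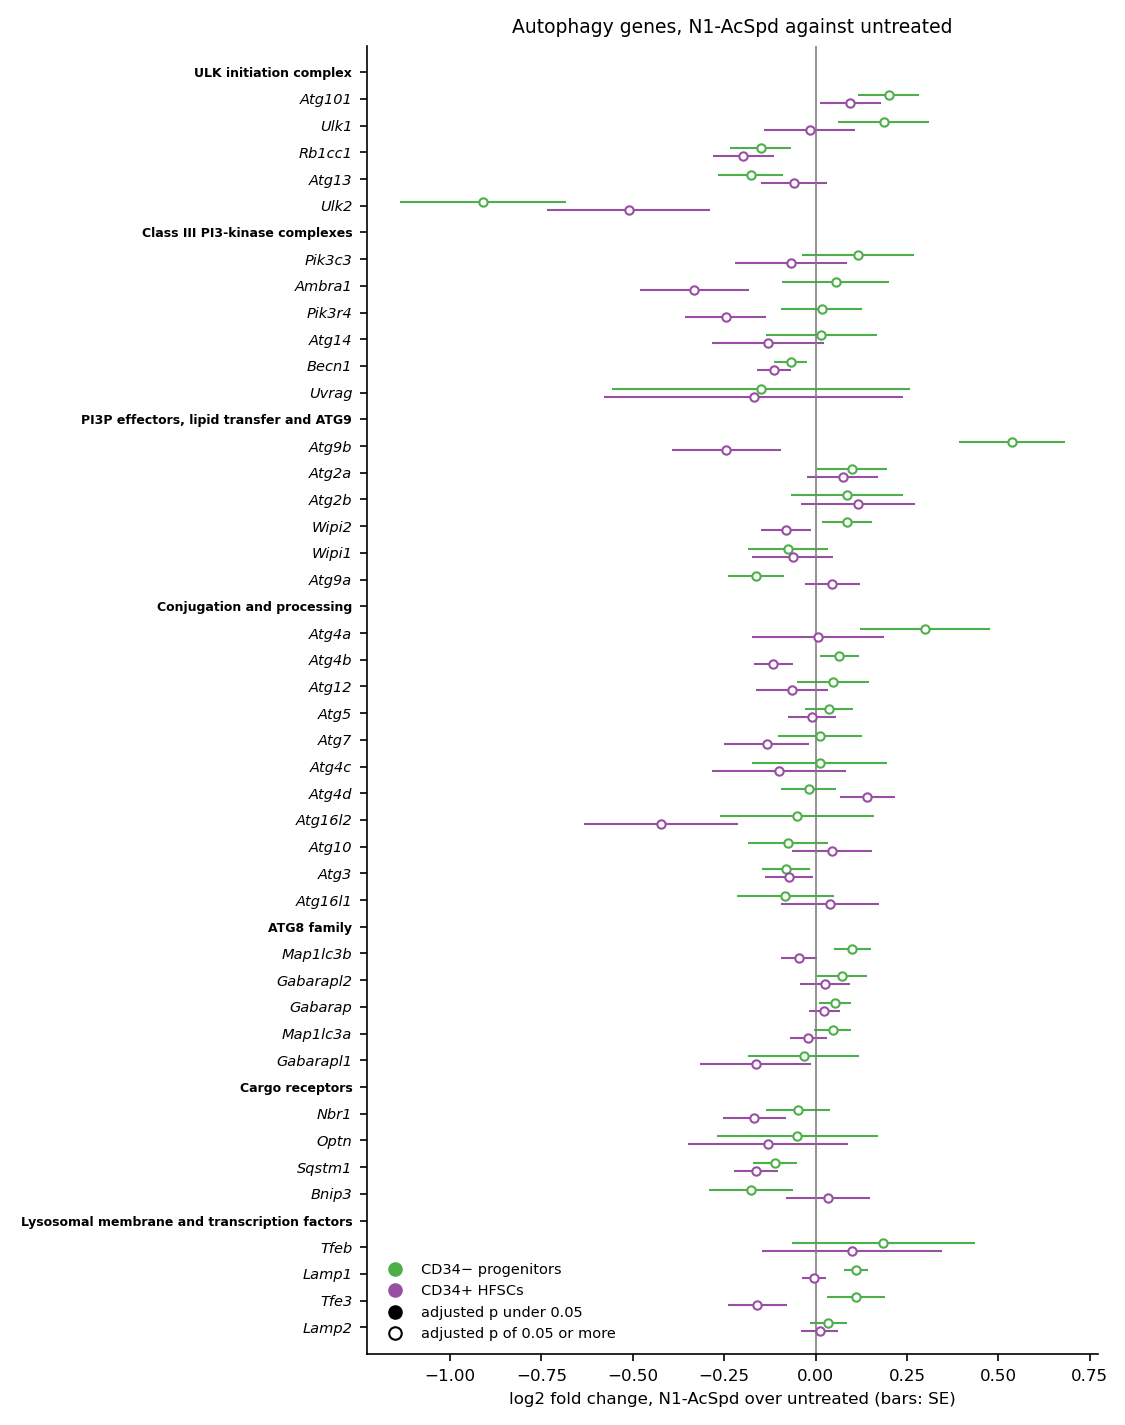
Log2 fold change of each of the 41 members in N1-AcSpd over untreated cells (x axis), by role, in CD34− progenitors (green) and CD34+ HFSCs (purple), with bars of 1 SE from 4 mice a group; all points are open since no adjusted p is under 0.05. Ulk2 lies furthest left in both (-0.91 and -0.51), and Atg9b furthest right in progenitors (0.54).

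Ulk2 (ENSMUSG00000004798, chromosome 11, 61775649 to 61855073) had the smallest p among members lower in N1-AcSpd progenitors. It was at 2.80, 1.60, 1.52 and 2.17 CPM in untreated and at 1.45, 0.959, 0.875 and 1.03 CPM in treated progenitors, so that each mouse was lower with N1-AcSpd and the groups did not overlap. In HFSCs it was at 3.47, 2.14, 2.17 and 3.08 CPM untreated and at 2.12, 1.76, 1.78 and 1.94 CPM treated, again lower in 4 of 4 mice without overlap. The fitted change was -0.91 (SE 0.23, adjusted p = 0.0934) on the log2 scale in progenitors, with a 95% interval of -1.40 to -0.42, and -0.51 (unadjusted p = 0.0385, adjusted p = 0.349) in HFSCs by edgeR. With the mouse as a replicate block, Ulk2 was called in progenitors (log2 fold change -0.89, adjusted p = 0.0082) and not in HFSCs (log2 fold change -0.49, adjusted p = 0.0846). Ulk1, the paralog with the same role, had 0.19 (adjusted p = 0.567) in progenitors and -0.016 (adjusted p = 0.995) in HFSCs.

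Atg9b had the smallest p among members higher in N1-AcSpd progenitors. Its 4 treated progenitor libraries (5.10 to 6.64 CPM) stood almost wholly above the untreated ones (3.13 to 5.10 CPM), meeting at mouse 3 treated and mouse 4 untreated, and each mouse was higher. The fitted change was 0.54 (SE 0.14, adjusted p = 0.114) on the log2 scale, with a 95% interval of 0.22 to 0.85, by edgeR. Without untreated CD34− mouse 4 it was 0.69 and passed the test (adjusted p = 0.0467). In HFSCs the log2 fold change of Atg9b was -0.24 (adjusted p = 0.528) and each mouse was lower. How far the Atg9b counts are common to Nos3 was not tested. Lamp1 (0.11, unadjusted p = 0.00434, adjusted p = 0.14), Atg101 (0.20, unadjusted p = 0.0305, adjusted p = 0.306) and Atg9a (-0.16, unadjusted p = 0.0491, adjusted p = 0.365) were the other progenitor values with an unadjusted p under 0.05 by edgeR.

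In HFSCs the smallest p of a lower member was that of Sqstm1 (ENSMUSG00000015837, chromosome 11, 50199366 to 50210827). It was at 39.5, 43.2, 38.1 and 42.9 CPM in untreated and at 34.6, 36.8, 35.2 and 39.5 CPM in treated HFSCs, lower in each of 4 mice but with overlap between mice. The log2 fold change was -0.16 (unadjusted p = 0.016, adjusted p = 0.268) by edgeR. In progenitors Sqstm1 was at 41.2, 41.3, 42.3 and 38.2 CPM untreated and at 41.5, 35.7, 37.0 and 36.8 CPM treated, a log2 fold change of -0.11 (adjusted p = 0.443). The smallest p of a higher member was that of Atg4d (ENSMUSG00000002820, chromosome 9, 21265293 to 21277772), an ATG8 protease whose counts are shared with Kri1. It was at 9.90, 9.82, 10.03 and 8.33 CPM in untreated and at 11.4, 9.56, 10.6 and 10.4 CPM in treated HFSCs, which overlapped, with a log2 fold change of 0.14 (unadjusted p = 0.0811, adjusted p = 0.45) by edgeR. Progenitors held 9.51, 8.94, 10.1 and 10.9 CPM of Atg4d untreated and 9.70, 10.3, 9.66 and 9.27 CPM treated, with a log2 fold change of -0.019 (adjusted p = 0.98). All 6 members of the PI3-kinase complexes had a negative log2 fold change in HFSCs (median -0.15, against -0.014 over all genes), of which Becn1 (-0.11, unadjusted p = 0.0267, adjusted p = 0.313), Pik3r4 (-0.25, unadjusted p = 0.0441, adjusted p = 0.363) and Ambra1 (-0.33, unadjusted p = 0.0431, adjusted p = 0.36) had an unadjusted p under 0.05 by edgeR and none passed the adjusted test. Rb1cc1 (-0.20, unadjusted p = 0.034, adjusted p = 0.336) and Atg4b (-0.12, unadjusted p = 0.048, adjusted p = 0.375) complete the 7 with Ulk2 and Sqstm1.

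The interaction, which asks whether N1-AcSpd acted differently on the 2 populations, called no member and 0.0% of all genes by edgeR. At an unadjusted p under 0.05 there were 4 members (9.76%, against 4.19% of all genes), and DESeq2 called 0 (0.378% of all genes) with 2 at that unadjusted p (3.38% of all genes). The smallest p in the negative direction was that of Atg9b, with a log2 difference of -0.78 (SE 0.21, unadjusted p = 0.00226, adjusted p = 1.0), and Atg9a had the smallest in the positive direction with 0.21 (unadjusted p = 0.0716, adjusted p = 1.0) by edgeR. Lamp1 (-0.12, unadjusted p = 0.0247, adjusted p = 1.0), Atg4b (-0.18, unadjusted p = 0.0319, adjusted p = 1.0) and Tfe3 (-0.27, unadjusted p = 0.0338, adjusted p = 1.0) were the others under an unadjusted 0.05 by edgeR. Negative values were found for 31 of 41 members, with a median of -0.082 against -0.0077 over all genes.

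Several members come as pairs of related genes, and the balance within a pair was taken as the log2 ratio of their UMI counts in each library, which needs no scaling between libraries. The level of one gene against the other within a library depends on how each is captured at its 3′ end, so only the change of the ratio is read. The exact permutation test set 4 against 4 libraries without regard to the mouse, although the libraries are paired by mouse. Such a test cannot give a two-sided p below 0.0286. With 14 tests (7 pairs in 2 conditions) the adjusted value at that limit was 0.05. Thus 0 of 14 passed an adjusted p under 0.05 and 8 of 14 were at the limit. The Map1lc3a to Map1lc3b ratio was higher in HFSCs by 0.58 in untreated and 0.66 in N1-AcSpd cells (both exact p = 0.0286, 4 of 4 mice). That of Lamp1 to Lamp2 was lower in HFSCs, with differences of -0.43 and -0.52 (both exact p = 0.0286, 4 of 4 mice). For Atg9a to Atg9b the difference was 0.39 in untreated and 1.40 in N1-AcSpd cells (both exact p = 0.0286, 4 of 4 mice). The part of their counts common to the overlapping Gm29253 and Nos3 was not tested. In 1 condition each, the limit was reached by Atg16l1 to Atg16l2, at -0.61 in untreated and -0.12 in N1-AcSpd cells (exact p = 0.0286 and 0.657), and by Ulk1 to Ulk2, at -0.26 and -0.88 (exact p = 0.4 and 0.0286). Atg2a to Atg2b differed by -0.43 and -0.45 (exact p = 0.0857 and 0.114) and Wipi1 to Wipi2 by 0.17 and 0.35 (exact p = 0.171 and 0.0571).

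**Figure D4:**
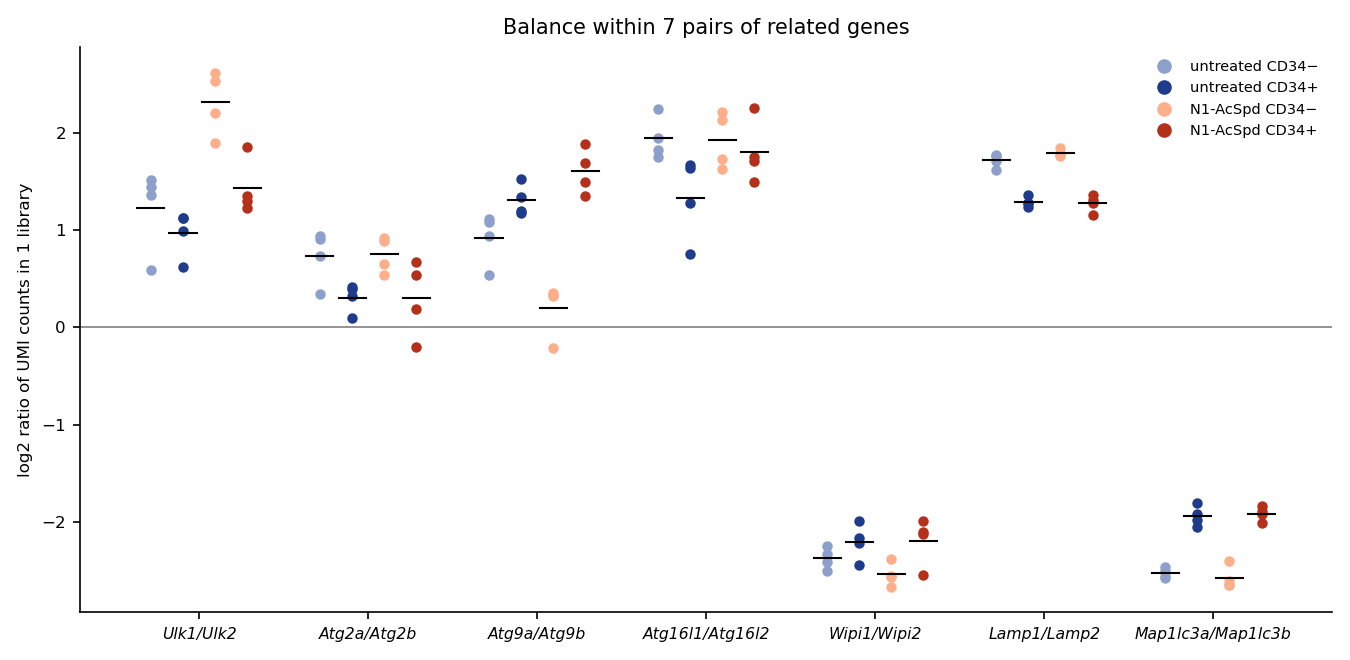
Log2 ratio of UMI counts within 7 pairs of related members (y axis), with 1 point for each library, 4 groups for each pair (x axis) and a bar for the group mean. The CD34+ points of Map1lc3a to Map1lc3b lie above the CD34− points of the same condition without overlap (differences of the means 0.58 and 0.66), and those of Lamp1 to Lamp2 below (-0.43 and -0.52).

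Uvrag, a PI3-kinase subunit that acts in vesicle maturation, is singled out after its values were seen, because it had the widest SE of the members (0.41 in untreated cells). Its locus (ENSMUSG00000035354, chromosome 7, 98885021 to 99141141, minus strand) contains the processed pseudogene Gm33882 on the opposite strand. Uvrag had 63 to 321 UMIs a library, and Gm33882 had 0, 3, 4 and 1 in 4 libraries and 86 to 206 in the other 12. The 4 libraries were untreated CD34− mouse 2, untreated CD34+ mouse 1, N1-AcSpd CD34− mouse 3 and N1-AcSpd CD34+ mouse 3, 1 in each group, and the same 4 had the lowest Uvrag values of their groups. After the pseudogene's tags were taken off, 63 to 131 UMIs remained in every library and the SE fell to 0.12. The log2 fold change of Uvrag between cell types was 0.25 in untreated and 0.23 in N1-AcSpd cells as deposited, and 0.085 and 0.21 after this step, none of them called by edgeR. The origin of the on-or-off counts of Gm33882 was not tested.

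**Figure D5:**
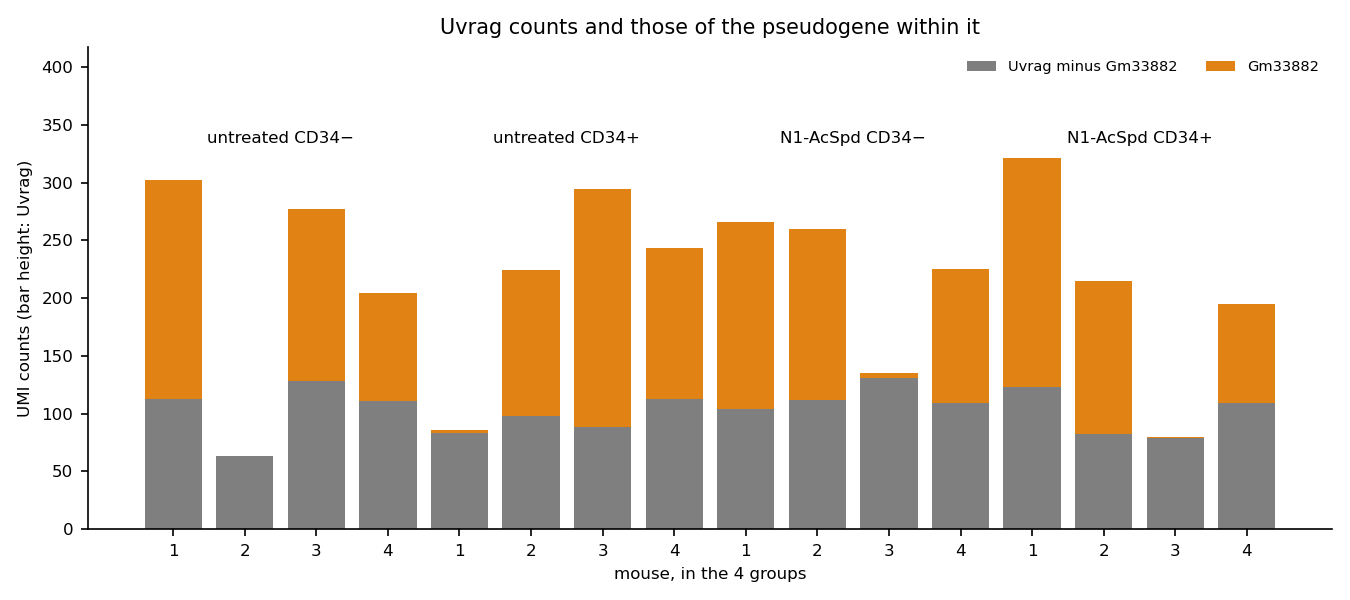
UMI counts of Uvrag in each of the 16 libraries (bar height, y axis from 0), split into those also counted for the pseudogene Gm33882 (orange) and the rest (grey), by mouse within each group (x axis). The grey part is 63 to 131 UMIs in every library, while the orange part is 0 to 4 in 4 libraries and 86 to 206 in the others.

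The wider pathway was read from 60 genes of autophagy and the lysosome that are not members, all of them tested. In untreated cells 20 were called (33.3%, 13 higher and 7 lower in HFSCs) and in N1-AcSpd cells 19 (31.7%, 9 higher and 10 lower), shares near those of all genes. The subunits of the V-ATPase, the proton pump that acidifies lysosomes, had 0 called higher and 5 lower of 15 in untreated cells, against 16.1% of all genes lower, and 0 higher and 6 lower of 15 in N1-AcSpd cells, against 16.8% (medians -0.10 and -0.14). The counts by direction depended on scaling. With library totals they were 3 higher and 4 lower in untreated cells (median 0.014), against 25.5% and 9.23% of all genes (median 0.14). In N1-AcSpd cells they were 1 higher and 4 lower (median -0.026), against 25.2% and 9.99% of all genes (median 0.11). The V-ATPase median thus lay below that of all genes with TMM and with library totals. DESeq2 size factors gave 0 higher with 7 and 6 lower, against 17.4% and 17.2% of all genes lower. For the lists that follow, the shares of all genes were 16.1% higher and 16.1% lower in untreated cells. In N1-AcSpd cells they were 16.5% and 16.8%. Lysosomal enzymes and channels had 5 higher and 1 lower of 16, and 5 higher and 2 lower. With DESeq2 size factors they had 2 higher and 1 lower in untreated cells (14.7% and 17.4% of all genes). Other cargo receptors had 3 higher and 0 lower of 6, and 2 higher and 1 lower. Fusion and other machinery had 3 higher and 1 lower of 14, and 2 higher and 1 lower, and the mTORC1 and AMPK genes 2 higher of 9 and then none. With library totals the fusion list had 6 higher and 1 lower in untreated cells, against 25.5% and 9.23% of all genes. The mTORC1 and AMPK list then had 4 higher in untreated and 2 in N1-AcSpd cells, against 25.5% and 25.2%.

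By the naming rule, 3 genes called higher in both conditions and 3 called lower are given. Hexa, a subunit of the lysosomal β-hexosaminidase, had log2 fold changes of 0.72 (SE 0.12, adjusted p = 0.000387) in untreated and 0.93 (SE 0.12, adjusted p = 4.18e-05) in N1-AcSpd cells by edgeR. Tax1bp1, a receptor for ubiquitinated cargo, had 0.62 (SE 0.077, adjusted p = 3.61e-05) and 0.69 (SE 0.077, adjusted p = 1.19e-05). For Retreg1, the receptor for the endoplasmic reticulum, the values were 0.47 (SE 0.13, adjusted p = 0.0128) and 0.58 (SE 0.13, adjusted p = 0.0033). Lower in HFSCs were the V-ATPase subunits Atp6v0a1, with -0.65 (SE 0.15, adjusted p = 0.00489) and -0.55 (SE 0.15, adjusted p = 0.013), and Atp6v1b2, with -0.49 (SE 0.078, adjusted p = 0.000323) and -0.63 (SE 0.078, adjusted p = 3.15e-05). The third was Tmem41b, a lipid scramblase of the endoplasmic reticulum, with -0.47 (SE 0.10, adjusted p = 0.00208) and -0.52 (SE 0.10, adjusted p = 0.000904). With N1-AcSpd, edgeR called 1 of the 60 in progenitors, the lysosomal protease gene Ctsd (0.23, SE 0.042, adjusted p = 0.0338). In HFSCs none was called, and Ctsd had 0.18 (SE 0.042, adjusted p = 0.104). Of all genes 0.614% and 0.325% were called.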

How the data were processed

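Sorted progenitors and HFSCs from organoids of 4 mice gave 16 libraries in 4 groups, taken from the labels. The authors separated reads by sample barcode with FLEXBAR, placed the second read on mm10 with Kallisto (0.45.0 in their processing notes), used BEDTools to assign them to genes, and kept unique UMIs per gene as the count, in R. The deposited counts are not normalized; 156050 empty cells were read as 0. The annotation release they used is not given in the sources used here. Symbols came from GENCODE vM21, and the 94 identifiers without a symbol held 0.125% of counts.

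A mean count of 5 or more was required, which left 19049 genes. The quasi-likelihood fit of edgeR (4.0.16, R 4.3.3) with TMM scaling and the legacy setting had 1 mean per group over all libraries (residual df 12), and a gene was called when its p, adjusted over all of them by Benjamini-Hochberg, was under 0.05. P-values are two-sided. To obtain the SE, each log2 fold change was divided by √F. For some members edgeR's p was larger than this SE implies, as for Pik3r4 in N1-AcSpd cells (log2 fold change 0.064, SE 0.11, unadjusted p = 0.75). The SE and interval of such members can be too small. CPM use TMM-scaled totals. Alternatives were DESeq2 1.42.0 (the authors' tool), other scalings and filters, the mouse as a block and only the groups compared. A minimum log2 fold change of 0.5 and 20 runs leaving out 1 library or 1 mouse were further alternatives. Chosen after seeing the data were no legacy setting, Uvrag without Gm33882 tags and the other pathway genes under other scalings. So was the count without the 4 members within 10% of an overlapping gene. The labels give a replicate number 1 mouse in all 4 groups, so libraries are paired by design; deviations from group means correlated between -0.069 and 0.086 over 24 same-mouse pairs.

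Members and lists were chosen with earlier results of these data known. Values in every library are given for up to 3 members of each role called in both cell type comparisons, for the smallest p in each direction where a comparison called none, and for the smallest p of a role without such a member; of the other pathway genes, 3 in each direction called in both. Exact permutation tests, which did not use the pairing by mouse, compared ratios. Intervals of log2 fold changes were built from the SE of the edgeR fit, which reflects the spread between libraries within groups.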

Additional observations from a re-analysis of the deposited data

Results flagged for a closer look

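Of 56 groups of 4 libraries tested for a sample far from the rest, 4 had an extreme library whose gap to its neighbour, as a share of the group's range, exceeded Dixon's 95% critical value; chance gives about 1 in 20 groups. Map1lc3a in N1-AcSpd HFSCs was highest in mouse 3 (59.7 CPM, median of the others 56.8 CPM, share 0.932). Lamp2 in N1-AcSpd progenitors was highest in mouse 1 (57.5 CPM against 54.2 CPM, share 0.893). Lamp1 in N1-AcSpd HFSCs was highest in mouse 4 (170.0 CPM against 164 CPM, share 0.963). Atg4d in untreated HFSCs was lowest in mouse 4 (8.33 CPM against 9.90 CPM, share 0.876). The calls on Map1lc3a, Lamp2 and Lamp1 in N1-AcSpd cells held without these libraries.

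For 2 of 41 members every mouse moved one way with N1-AcSpd in progenitors and the other way in HFSCs. The share of all genes with this pattern was not computed, so the count is not read as a result about the members. Atg9b had log2 changes per mouse of 0.098 to 1.08 in progenitors and of -0.44 to -0.073 in HFSCs, with an interaction of -0.78 (edgeR, unadjusted p = 0.00226, adjusted p = 1.0). Ambra1, an activator of the PI3-kinase complex, had 0.024 to 0.085 in progenitors and -0.50 to -0.039 in HFSCs, with an interaction of -0.39 (edgeR, unadjusted p = 0.0857, adjusted p = 1.0). Neither difference passed the adjusted test.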

How the results depend on the processing

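The number of members called between cell types in untreated cells (11) was 19 with library totals (18 higher, 1 lower; 34.8% of all genes called), 5 without a low-count filter (16.0% of all genes), 7 with only the groups compared (28.9%) and 4 with a log2 fold change over 0.5 required (15.3%); in N1-AcSpd cells (11) the last gave 4 (16.8%). The call on Lamp1 in untreated cells was lost with library totals, where its log2 fold change turned from -0.09 to 0.025. Library totals moved the all-gene medians by over 0.1. For N1-AcSpd in progenitors, the replicate block (1 member, Ulk2; 1.84% of all genes) and DESeq2 (1 member, Lamp1; 2.93%) each gave 1 call in place of 0. Leaving out 1 library or 1 mouse gave 3 to 11 calls in untreated cells (3 without mouse 4), 8 to 12 in N1-AcSpd cells, 0 to 1 for N1-AcSpd in progenitors (1 without untreated CD34− mouse 4, Atg9b), and 0 to 0 in HFSCs and for the interaction. Calls over all genes fell as well. Without mouse 4 they were 4506 of 19038 in untreated and 4927 of 19038 in N1-AcSpd cells, against 6123 and 6347 of 19049 in the main fit. For N1-AcSpd in progenitors they were 62 of 19034 without untreated CD34− mouse 4, against 117 of 19049. DESeq2 called 8 members in untreated (31.2% of all genes) and 12 in N1-AcSpd cells (32.7%), and gave no adjusted p for 9 members in progenitors and 17 in HFSCs. With the replicate block the counts were 14 in untreated (34.0% of all genes) and 13 in N1-AcSpd cells (34.9%); it changed no call on a member beyond those given beside the results. The fit of only the groups compared does not exist for the interaction, which uses all of them. Apart from the values explained by a setting's own construction, the cause was not tested.

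Depth limits Tfeb, Atg16l2, Atg4c and Ulk2, with mean counts of 16.9 to 39.6 UMIs and an SE of 0.18 to 0.25 in the cell type comparisons. The members with the deepest counts, such as Lamp1 and Map1lc3b, had an SE of 0.033 to 0.050. For 4 members the counts were within 10% of those of an overlapping gene in every library. Uvrag shared tags with Gm33882, and overlaps of other members, such as Atg4b, Atg9a and Atg9b, were not tested for shared tags. In addition, 3′ counts do not separate isoforms such as those of Lamp2. With 4 mice a group, p-values set the group differences against the spread between libraries within groups, in a fit without a mouse term.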
